A study of Mus musculus with 6 samples.

Results

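The 36 mouse genes described here make, take up, move, store or export cholesterol. They were compared between 2 groups of cells sorted from adult mouse ovaries. The genes were chosen by name for their place in the pathway, with earlier results of these data known. Of the 36 genes, 33 had at least 1 probe set carrying their symbol alone. All 33 were bright enough to be tested, among 11703 genes tested of 18193 named on the array. Acat2, Soat1 and Nr1h2 had no probe set under their own symbol in the annotation used here and were not analysed here. The 33 genes were read by 73 probe sets, 66 of them above the floor, a mean signal of 99.4 on the log scale that marks the 40th percentile of all probe sets.

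Every sample came from female 129S6/SvEvTac mice carrying Gli1-CreERT2 and Rosa-LSL-tdTomato, so that tamoxifen turned on a permanent red label in whatever cells expressed Gli1 at that time. The 3 mesonephros-derived samples received tamoxifen in fetal life on E12.5, E14.5, then E16.5, and the 3 ovary-derived samples received it on postnatal days 1 to 3 through the milk of treated dams. All ovaries were taken at 2 months of age, digested and sorted by the red label, and 1 array was run per sample. Because both groups carried the same alleles and were given the drug at different ages, lineage and time of labelling cannot be told apart, and the label follows the Gli1 promoter rather than a cell type. The labels do not say whether samples came from separate animals, and p-values therefore cover only sample-to-sample spread, part or all of which may be technical. Of the 14 theca and stromal markers followed, 12 were above the floor in the sorted cells, among them Pdgfra, Ptch1, Gli1 and Cyp17a1, while all 8 oocyte markers lay below it. Lhcgr and Insl3 had no probe set under their own symbol and were not analysed here.

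Cells build cholesterol from acetyl-CoA through mevalonate to squalene, then close the rings to lanosterol and trim it to cholesterol. When sterol in the endoplasmic reticulum is low, SCAP escorts the SREBP transcription factors to the Golgi, where they are cut free to switch on the synthesis enzymes and receptors for lipoproteins, and INSIG proteins hold SCAP back when sterol is plentiful. When sterol is in excess, its oxidised products activate the LXR nuclear receptors, which raise the export pumps ABCA1 and ABCG1. Theca cells use cholesterol as the starting material for androgens and draw it from lipoproteins, from stored esters and from their own synthesis.

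Promoters of the synthesis genes are shown because SREBP proteins act there together with the factor NF-Y, which binds CCAAT boxes, and SP1, which binds GC boxes. RefSeq promoters (build GRCm38.p6) matched 30 of the 36 genes, with 42 start sites. The synthesis genes Sqle, Fdps and Fdft1 had no entry, nor had Npc1, Stard4 and Abcg1. In the 250 bases before each start, on either strand, a match to CCAAT was present at 13 of 17 starts of synthesis genes (76.5%), at 11 of 25 starts of the other members (44.0%) and at 33.8% of all 32851 starts in the table. A GC box, GGGCGG, was present at 14 of 17 (82.4%), 13 of 25 (52.0%) and 32.7%. A sterol regulatory element written as TCACNCCAC was found at 1 of 17 synthesis starts, that of Hmgcs1, at 0 of 25 others and at 1.05% of all starts. Elements written with other letters were not searched for. None of these motifs contains another, and a match describes the letters only. The 32851 starts, of 27025 gene symbols, were not matched to these genes for base content or for breadth of expression. The starts printed are those of Hmgcs1 and of the 4 enzymes downstream of squalene whose arrays did not overlap between the groups. Capitals mark CCAAT, read as ATTGG where it lies on the opposite strand, and in Hmgcs1 also the sterol element. Their positions are chr13:119690101-119690350 on the plus strand, chr1:169969206-169969455 on the minus strand, chrX:8193513-8193762 on the minus strand, chr9:42264301-42264550 on the minus strand and chr7:143829964-143830213 on the plus strand. For Dhcr7 the third of its 3 starts is shown, the only one with a CCAAT match.
Hmgcs1: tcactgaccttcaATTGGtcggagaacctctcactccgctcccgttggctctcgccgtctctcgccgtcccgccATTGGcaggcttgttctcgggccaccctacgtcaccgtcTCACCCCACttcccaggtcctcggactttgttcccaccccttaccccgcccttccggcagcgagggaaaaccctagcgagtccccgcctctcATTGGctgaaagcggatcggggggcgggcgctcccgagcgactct
Hsd17b7: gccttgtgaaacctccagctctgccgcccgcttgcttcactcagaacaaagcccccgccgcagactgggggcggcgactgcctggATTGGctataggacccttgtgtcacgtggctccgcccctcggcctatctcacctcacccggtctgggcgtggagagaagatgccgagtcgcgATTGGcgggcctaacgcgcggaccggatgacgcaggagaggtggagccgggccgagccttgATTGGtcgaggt
Ebp: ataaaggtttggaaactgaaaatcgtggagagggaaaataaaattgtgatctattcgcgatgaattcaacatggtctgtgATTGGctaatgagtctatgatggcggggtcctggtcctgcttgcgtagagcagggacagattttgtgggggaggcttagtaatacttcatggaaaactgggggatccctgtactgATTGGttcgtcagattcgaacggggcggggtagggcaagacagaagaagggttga
Sc5d: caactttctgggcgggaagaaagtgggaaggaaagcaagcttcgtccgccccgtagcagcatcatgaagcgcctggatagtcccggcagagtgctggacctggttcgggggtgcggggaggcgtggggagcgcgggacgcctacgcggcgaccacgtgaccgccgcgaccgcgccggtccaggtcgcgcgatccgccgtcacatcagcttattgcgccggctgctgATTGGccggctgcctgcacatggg
Dhcr7: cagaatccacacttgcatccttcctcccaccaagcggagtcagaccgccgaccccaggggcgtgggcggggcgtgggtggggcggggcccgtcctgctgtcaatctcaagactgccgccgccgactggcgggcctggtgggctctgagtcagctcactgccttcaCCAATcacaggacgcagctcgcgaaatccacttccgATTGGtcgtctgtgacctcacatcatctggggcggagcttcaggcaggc

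The mesonephros-derived arrays were noisier than the ovary-derived ones. Around their group means the arrays had an SD of 0.59 to 0.82 log2 units in the first group and 0.25 to 0.32 in the second, and 25 of the 33 cholesterol genes had the larger SD in mesonephros-derived cells. Signals of the poly-A control RNAs, set against their ovary-derived mean, were 2.46 to 15.3 times as high on the mesonephros-derived arrays and 0.677 to 1.78 times on the others. Hybridisation controls, set against their own ovary-derived mean, were 1.397 to 3.42 times as high on the mesonephros-derived arrays and 0.838 to 1.24 times on the others. The Gapdh 3′ to 5′ ratio was 5.29, 3.48 and 2.63 against 1.94 to 2.86. That of Actb was not raised on the mesonephros-derived arrays, at 0.89, 0.93 and 0.89 against 0.92 to 1.01. Replicate 1 of the mesonephros-derived cells gave the lowest of the 6 values for 12 of the 33 genes (36.4%, against 32.1% of all genes tested) and the highest for 10 (30.3%, against 26.1%). The part of these differences in the results that follow was not tested.

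No cholesterol gene passed an adjusted p of 0.05 in limma, where 5 of 11703 genes did (0.0427%), 4 of them higher (0.0342%) and 1 lower (0.00854%) in mesonephros-derived cells. At an unadjusted p under 0.05 there were 3 of the 33, Lrp1 and Npc2 on the higher side and Dhcr7 on the lower. That is 9.09%, beside 13.7% of all genes tested, 6.46% higher and 7.22% lower. This count was 8 without mesonephros-derived replicate 1, 5 without mesonephros-derived replicate 3 and 1 without ovary-derived replicate 1, while 0 passed an adjusted p of 0.05 each time. The log2 change, mesonephros-derived minus ovary-derived, was below 0 for 22 of 33 genes (66.7%, against 56.5% of all genes) and above 0 for 11 (43.5% of all genes), with a median of −0.12 against −0.08. The arrays of the groups did not overlap for 8 genes, 24.2% against 22.2% of all genes, 6 of them lower (12.6% of all genes) and 2 higher (9.56%) in mesonephros-derived cells. Counted over the whole set, these shares lay near the background. In whole sorted samples, fewer cells of a type and less RNA per cell cannot be told apart.

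**Figure D1:**
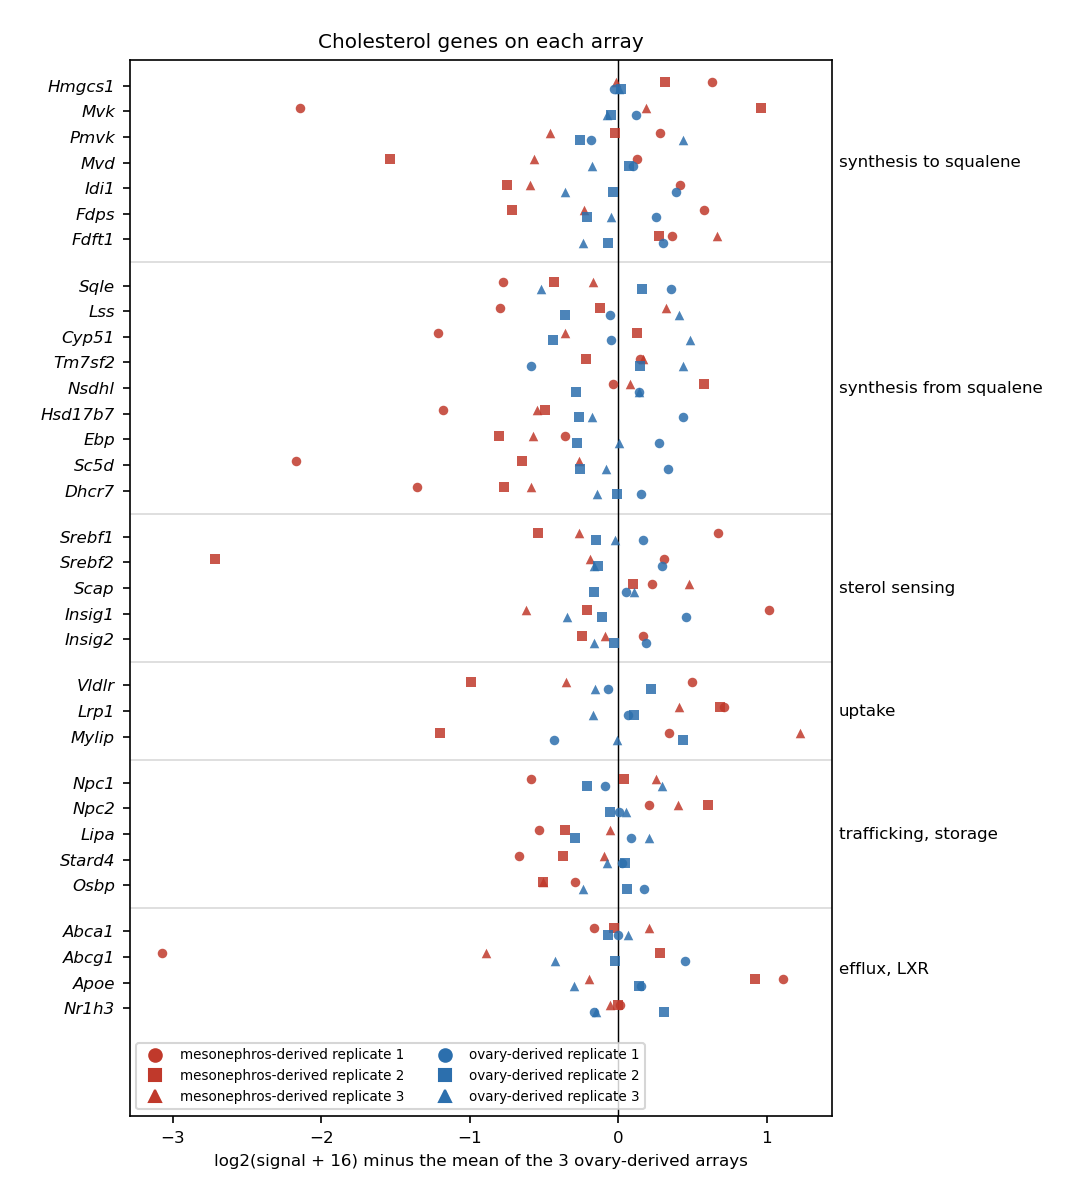
Signal of each cholesterol gene on each of the 6 arrays, as log2(signal + 16) minus the mean of the 3 ovary-derived arrays, with red symbols for mesonephros-derived and blue for ovary-derived samples and genes ordered by role. Red symbols lie left of all blue ones for Hsd17b7, Ebp, Sc5d, Dhcr7, Stard4 and Osbp and right of them for Lrp1 and Npc2, and mesonephros-derived replicates 1 and 2 often lie far apart.

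Of the 7 enzymes measured that lead to squalene, 2 had a log2 change above 0 and 5 below (71.4%, against 56.5% of all genes tested). Their median was −0.12, with 0 at an unadjusted p under 0.05, and the groups overlapped for every one of them. Hmgcs1, which condenses acetyl units into HMG-CoA, had signals of 8068, 6485 and 5152 on the mesonephros-derived arrays against 5096, 5282 and 5224 on the ovary-derived ones. Its mesonephros-derived replicate 3 fell among the ovary-derived values, and the log2 change was 0.31 ± 0.20 (SE, adjusted p = 0.492 by limma). Fdft1, squalene synthase, stood at 946, 888 and 1169.5 against 906, 699 and 619. Again 1 array overlapped, with a log2 change of 0.43 ± 0.26 (SE, adjusted p = 0.471 by limma).

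Mevalonate is phosphorylated by Mvk and Pmvk, decarboxylated by Mvd and isomerised by Idi1 before Fdps joins the units into farnesyl diphosphate. Mvk read 55.1, 594 and 342 against 325, 287 and 282, so that its mesonephros-derived values lay on either side of a tight ovary-derived group and 1 of them lay below the floor. Its change of −0.33 ± 0.70 (SE) was 0.58 without mesonephros-derived replicate 1. Mvd, at 254, 69.2 and 151 against 249, 244 and 203, had its lowest value on mesonephros-derived replicate 2, below the floor, and a change of −0.66 ± 0.48 (SE) that was −0.22 without that array. Idi1 read 1651, 726 and 812 against 1622, 1206 and 957, with mesonephros-derived replicate 1 level with the highest ovary-derived array and the other mesonephros-derived arrays below all ovary-derived ones. Its change was −0.31 ± 0.35 (SE), or −0.67 without replicate 1 and −0.09 without replicate 2. Fdps, at −0.12 ± 0.41, and Pmvk, at −0.07 ± 0.31 (SE), lay near 0, with Fdps at 0.18 without mesonephros-derived replicate 2 and Pmvk at 0.15 without ovary-derived replicate 3.

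Downstream of squalene, 7 of the 9 enzymes of the set had a log2 change below 0 (77.8%, against 56.5% of all genes tested), with a median of −0.48 against −0.08. The roles, and so the division of the pathway at squalene, were set with earlier results of these data known. Only Dhcr7 had an unadjusted p under 0.05, and 0 of the 9 passed an adjusted p of 0.05 in limma. For 4 of the 9, 44.4% against 12.6% of all genes, the 3 mesonephros-derived arrays all lay below the 3 ovary-derived ones. These were Hsd17b7, Ebp, Sc5d and Dhcr7, while Nsdhl and Tm7sf2, which like them act after the lanosterol demethylase CYP51, overlapped between the groups and had changes above 0. Msmo1 and Lbr, late enzymes outside the set, also overlapped, with changes of −0.04 ± 0.38 and −0.47 ± 0.24 (SE).

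Dhcr7, 7-dehydrocholesterol reductase, performs the last reduction to cholesterol in the branch that runs through 7-dehydrocholesterol. Its signals were 362, 552 and 629 in mesonephros-derived cells and 1059, 946 and 859 in ovary-derived cells, 515 ± 138 against 955 ± 100.5 (SD, n = 3 each). The highest mesonephros-derived value lay well short of the lowest ovary-derived one. The level was 1.87-fold lower, a log2 change of −0.90 ± 0.29 (SE) with a 95% interval of −1.55 to −0.25 and a limma adjusted p of 0.279. It ranged from −1.06 to −0.68 when each array was left out in turn.

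Sc5d, which introduces a double bond just before the DHCR7 step, read 132, 408 and 538 against 825, 542 and 613. The groups were separated by a narrow margin, with the highest mesonephros-derived array just under the lowest ovary-derived one. The log2 change was −1.03 ± 0.49 (SE, adjusted p = 0.389 by limma) and −0.46 without mesonephros-derived replicate 1. Hsd17b7, the keto reductase that works with NSDHL in removing the methyl groups of lanosterol, read 218, 359.6 and 347 against 699.7, 426 and 453. Here too all mesonephros-derived arrays were lower, by 0.74 ± 0.35 log2 units (SE, adjusted p = 0.387 by limma). Ebp, the sterol isomerase, read 300.1, 216 and 256 against 473, 318 and 389.8, a change of −0.58 ± 0.33 (SE, adjusted p = 0.459 by limma). Its ovary-derived replicate 2 came closest to the mesonephros-derived values.

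The remaining enzymes of this stretch overlapped between the groups. Sqle, squalene epoxidase and a rate-limiting step, read 223, 288 and 348 against 508, 441 and 270.3, where only ovary-derived replicate 3 fell among the mesonephros-derived arrays, with a log2 change of −0.46 ± 0.36 (SE, adjusted p = 0.589 by limma). Cyp51 read 578, 1487 and 1058 against 1315, 999 and 1904, a change of −0.48 ± 0.38 (SE) that was −0.11 without mesonephros-derived replicate 1. Lss, which closes the rings to lanosterol, stood at −0.20 ± 0.38 (SE) and at 0.10 without that array. On the other side of 0 were Nsdhl, at 0.21 ± 0.31, and Tm7sf2, a sterol reductase, at 0.03 ± 0.38 (SE), which was −0.26 without ovary-derived replicate 1. Mesonephros-derived replicate 1 was the lowest of the 6 arrays for 6 of the 9 enzymes, and without it the median of the 9 was −0.30. Then 7 were again below 0, with Lss above and Tm7sf2, at −0.02, below.

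**Figure D2:**
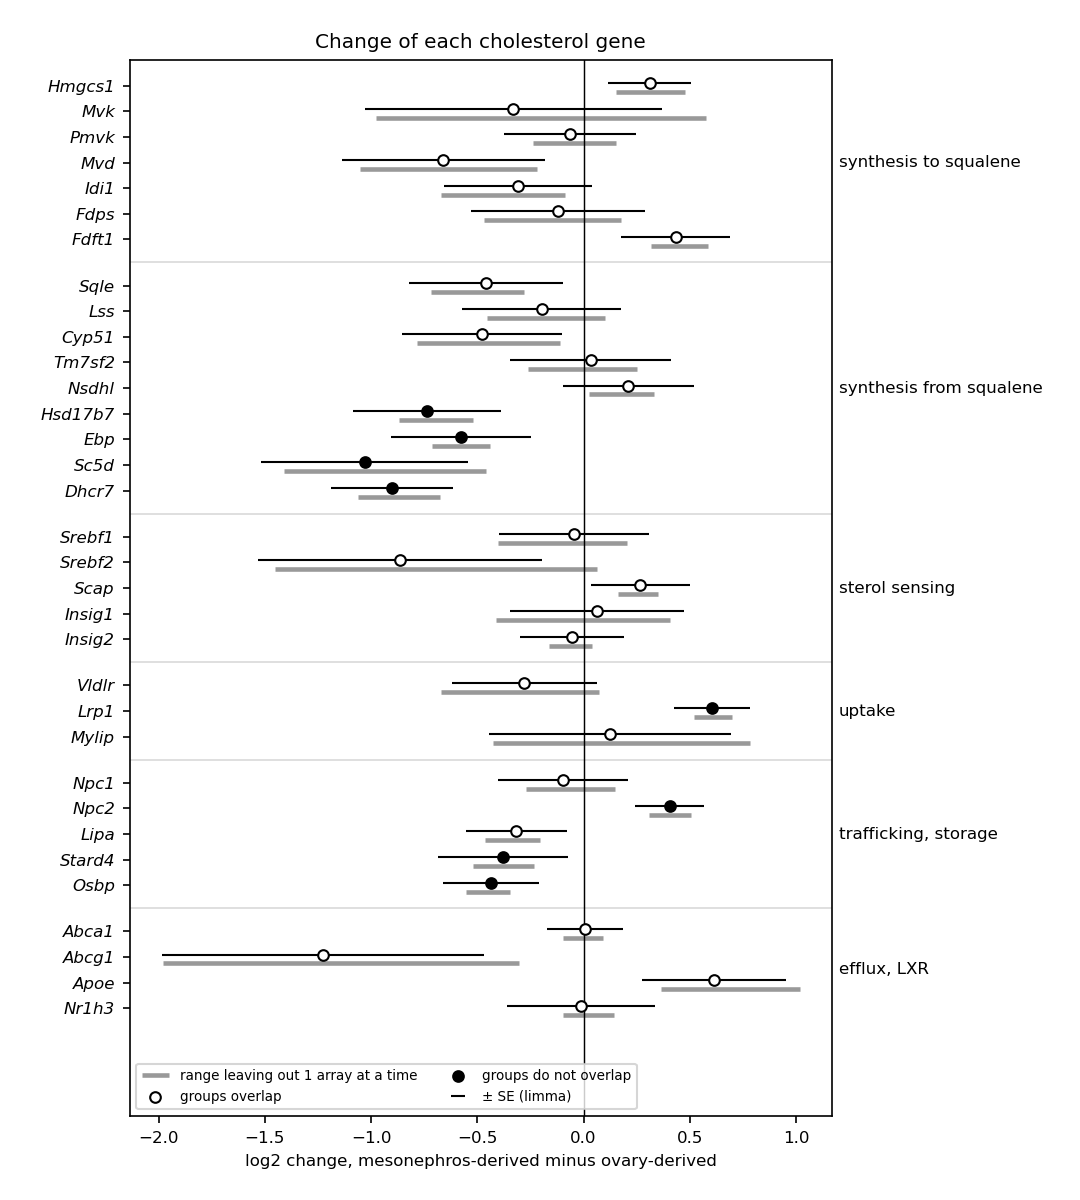
Log2 change of each gene (circles, filled where the arrays of the groups do not overlap) with its SE from limma, and as grey bars the range when each of the 6 arrays is left out in turn. The 4 filled circles among the synthesis genes are Hsd17b7, Ebp, Sc5d and Dhcr7, from −1.03 to −0.58, while grey bars of Mvk, Srebf2 and Mylip run across 0.

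The sterol sensors overlapped between the groups without exception, with a median change of −0.04 over 5 genes and 0 at an unadjusted p under 0.05. Srebf2, which encodes the SREBP that drives cholesterol synthesis, read 1613, 184 and 1135 against 1597, 1176 and 1158, so that mesonephros-derived replicate 2 alone stood apart. The change of −0.86 ± 0.67 (SE, adjusted p = 0.582 by limma) became 0.06 without that array. Its other probe set went the opposite way on the same arrays, at 1059, 1388 and 459 against 517, 462 and 452, a difference of 0.86. No direction can therefore be given for Srebf2.

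Insig1, which retains SCAP and is itself raised by SREBP, read 2926, 1242 and 931 against 1976, 1329.7 and 1129. Its highest and its lowest value both came from mesonephros-derived arrays, and the change was 0.06 ± 0.41 (SE, adjusted p = 0.960 by limma). Srebf1, whose protein drives fatty acid genes, likewise had both extremes among mesonephros-derived arrays, 953, 404 and 490.5 against 669, 534 and 583, with a change of −0.04 ± 0.35 (SE). Insig2, the isoform less tied to SREBP, read 933, 698 and 778 against 948, 811 and 739.7, with a 95% interval of the log2 change of −0.61 to 0.50. Scap stood at 0.27 ± 0.23 (SE, adjusted p = 0.623 by limma), with 960.4, 878 and 1147 against 849, 732 and 884 and a slight overlap.

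Among the uptake genes Lrp1 had the smallest p of the whole set in the main fit. Dhcr7 had it after quantile normalization or without the intensity trend, and Npc2 with array weights. It also changed when some arrays were left out. LRP1 is a large receptor that takes up remnant lipoproteins carrying APOE along with many other ligands. Its signals were 5617, 5527 and 4563 in mesonephros-derived and 3580.2, 3685 and 3043 in ovary-derived cells, 5236 ± 584 against 3436 ± 344 (SD, n = 3 each), with no overlap. The level was 1.52-fold higher, a log2 change of 0.60 ± 0.18 (SE) with a 95% interval of 0.20 to 1.01 and a limma adjusted p of 0.263. A second probe set read 1526, 3335 and 1265 against 588, 735 and 1242. It too kept the groups apart, though 1 array from each came close, and differed by 1.18 log2 units. Smooth muscle and pericyte markers lay on the same side. All 12 had a change above 0 (43.5% of all genes tested did), and 2, Myh11 and Tagln, passed an adjusted p of 0.05 in limma. Their list means were 0.90, 1.20 and 1.04 log2 units over the ovary-derived mean, with summed signals of 90148 to 116449 against 44105 to 52283. Their part in the Lrp1 difference was not tested.

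Vldlr, the receptor for very low density lipoprotein and reelin, read 4427, 1569 and 2448 against 2982, 3646 and 2809. Its mesonephros-derived arrays spread from the lowest to the highest value, with a change of −0.28 ± 0.34 (SE), −0.67 without mesonephros-derived replicate 1 and 0.07 without replicate 2. Mylip, an LXR-induced ligase that degrades receptors of this family, read 539, 175 and 1005 against 308, 578 and 419.8. These values had no order by group, and the change of 0.12 ± 0.57 (SE) was −0.43 without mesonephros-derived replicate 3 and 0.78 without replicate 2.

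Of the 5 genes measured that release, move and store sterol, 4 had a log2 change below 0 (80.0%, against 56.5% of all genes tested) and 1, Npc2, above, with a median of −0.32 and 0 past an adjusted p of 0.05 in limma. Npc2, the soluble lysosomal protein that hands cholesterol to the membrane protein NPC1, read 9427, 12413 and 10829 against 8196, 7862 and 8470.0, 1.32-fold higher without overlap. Its log2 change was 0.40 ± 0.16 (SE) with a 95% interval of 0.03 to 0.78 and a limma adjusted p of 0.346. Its other probe sets overlapped between the groups. They differed by 0.08, −0.40 and −0.81 log2 units, so the direction rests on the 1 probe set. For that probe set the change was 0.044 (unadjusted p = 0.794) after quantile normalization with limma, and with the replicate number as a block the unadjusted p was 0.0999. Npc1 itself read 472, 738 and 858 against 672, 619 and 885, with a change of −0.10 ± 0.31 (SE) that was 0.15 without mesonephros-derived replicate 1.

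Osbp, which exchanges sterol for a phosphoinositide between the endoplasmic reticulum and the Golgi, read 1057, 906 and 906 against 1467, 1349 and 1098. All its mesonephros-derived arrays were lower, 1.35-fold on average, with a log2 change of −0.43 ± 0.22 (SE, adjusted p = 0.418 by limma). Stard4, a soluble sterol carrier under SREBP control, read 260.1, 324 and 395 against 431, 437 and 402. The margin was narrow, since mesonephros-derived replicate 3 lay just under the lowest ovary-derived array, and the change was −0.38 ± 0.31 (SE, adjusted p = 0.598 by limma), with its other probe sets at −0.31 and −0.15. Lipa, the lysosomal lipase that frees cholesterol from lipoprotein esters, read 981, 1109 and 1372 against 1515, 1162 and 1650.2, overlapping, with a change of −0.32 ± 0.24 (SE, adjusted p = 0.574 by limma).

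On the efflux side, Abca1, the pump that loads cholesterol onto lipid-poor apolipoproteins, differed little between the groups. It read 3106, 3411 and 4021 against 3473, 3324 and 3645, a change of 0.01 ± 0.18 (SE) with a 95% interval of −0.40 to 0.41, and its other probe sets differed by 0.37 and 0.40, with overlap. Abcg1, the pump that exports sterol to HDL, read 22.0, 373 and 157 against 421, 299 and 222. Mesonephros-derived replicate 1 lay far below the floor and replicate 2 among the ovary-derived arrays, and the change of −1.23 ± 0.76 (SE, adjusted p = 0.488 by limma) was −0.30 without replicate 1. Macrophage markers had the same order on the mesonephros-derived arrays, with list means of −2.51, 0.65 and −0.73 log2 units against the ovary-derived mean. So did endothelial markers, at −1.87, −0.25 and −1.36, and genes of steroid synthesis, at 0.45, 1.51 and 1.10. On the ovary-derived arrays the endothelial list, at 0.28, 0.19 and −0.47, kept the order of Abcg1. The macrophage list, at −0.09, 0.37 and −0.28, and the steroid list, at 0.10, −0.11 and 0.01, did not. Macrophage summed signals were 1867, 17441 and 5126 against 7118 to 11065. Of the 18 macrophage markers 14 were above the floor and 13 of these had a change below 0 (92.9%, against 56.5% of all genes tested). None was at 0, but Csf1r, C1qa and Aif1 read 2.81, 5.00 and 6.94 on mesonephros-derived replicate 1, where C1qb read 875. The part of any of these lists in the Abcg1 difference was not tested.

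Apoe, the apolipoprotein that accepts exported cholesterol and binds LRP1 and VLDLR, read 3466, 3050.4 and 1394 against 1779.6, 1767 and 1299. Replicates 1 and 2 of the mesonephros-derived cells exceeded every ovary-derived array and replicate 3 fell among them. The change was 0.61 ± 0.34 (SE, adjusted p = 0.450 by limma), or 1.02 without replicate 3 and 0.36 without replicate 1. Poly-A spikes were also highest on mesonephros-derived replicates 1 and 2, and their part was not tested. Nr1h3, which encodes LXR alpha, read 220.5, 218 and 209 against 193, 275 and 195, with a change of −0.01 ± 0.35 (SE) and a 95% interval of −0.80 to 0.77.

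**Figure D3:**
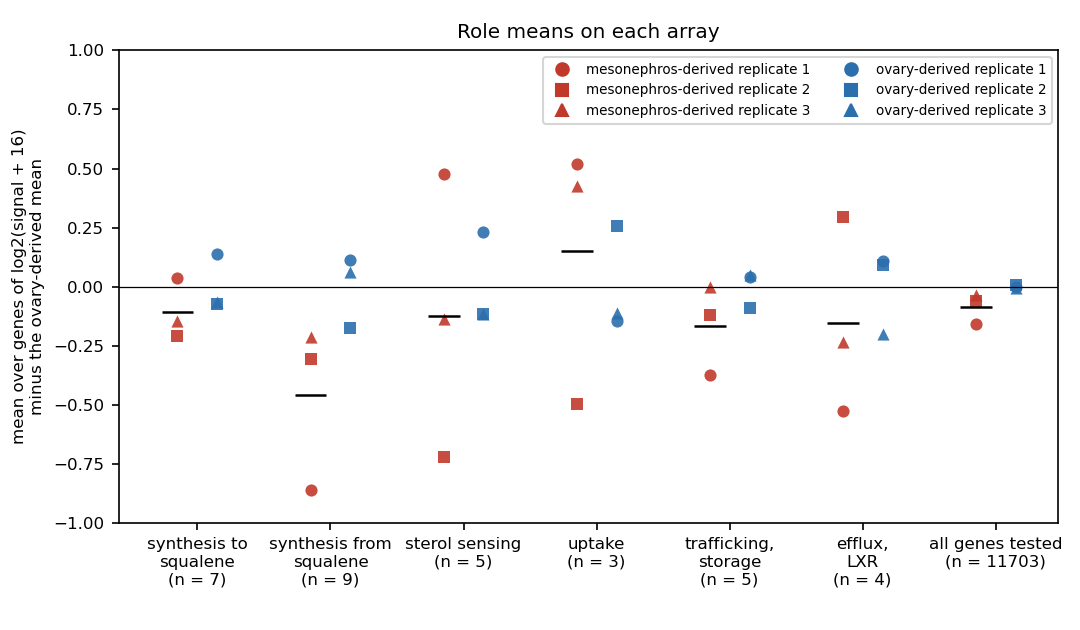
Mean over the genes of each role of log2(signal + 16) on each array, minus the mean of the 3 ovary-derived arrays, with n the number of genes tested and black lines the mesonephros-derived means. Among the roles, only synthesis from squalene has all 3 mesonephros-derived arrays, at −0.86, −0.31 and −0.21, below all 3 ovary-derived ones. The mean over all genes tested also does, by a smaller margin, at −0.16, −0.06 and −0.03. Sterol sensing and uptake spread most among the mesonephros-derived arrays.

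Averaged by role, the arrays differed in a way that no single shift describes. Synthesis from squalene averaged −0.86, −0.31 and −0.21 log2 units on the mesonephros-derived arrays, in the order of replicates 1, 2 and 3, and 0.11, −0.17 and 0.06 on the ovary-derived ones, so the groups did not overlap. Synthesis to squalene stood at 0.04, −0.21 and −0.14 against 0.14, −0.07 and −0.06, with overlap. Replicate 1, the lowest mesonephros-derived array for the late enzymes, was the highest of the 6 for sterol sensing, which read 0.48, −0.72 and −0.14 against 0.23, −0.12 and −0.12. Uptake read 0.52, −0.50 and 0.43 against −0.15, 0.26 and −0.11, trafficking and storage −0.37, −0.12 and 0.00 against 0.04, −0.09 and 0.05, and efflux −0.53, 0.29 and −0.23 against 0.11, 0.09 and −0.20. The same mean over all 11703 genes was −0.16, −0.06 and −0.03 in the mesonephros-derived arrays against −0.002, 0.006 and −0.004. There too the groups did not overlap, by a smaller margin. These role means are descriptions of roles set with earlier results of these data known, and no test was made on them.

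Several genes were read by more than 1 probe set, which bears on how firmly a direction can be stated. Of 17 genes with another probe set above the floor, 8 had at least 1 whose sign was opposite to that of the probe set used, 12 of 33 probe sets in all. For Hmgcs1 all the others did. The probe set used differed by 0.31, while the other 3 differed by −0.62, −0.54 and −0.18, and one of these read 556, 743 and 958 against 1258, 1127 and 874. Cyp51 kept its sign, and its other probe sets differed more, by −1.10 and −1.03 against −0.48. The first of them read 102, 73.4 and 142 against 288, 234 and 201, without overlap. Sc5d had other probe sets at −0.59 and 0.24, and Hsd17b7 at −1.01 and 0.06, so each had the same sign on 1 further probe set and the opposite sign on another. Dhcr7 and Ebp were each read by 1 probe set.

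**Figure D4:**
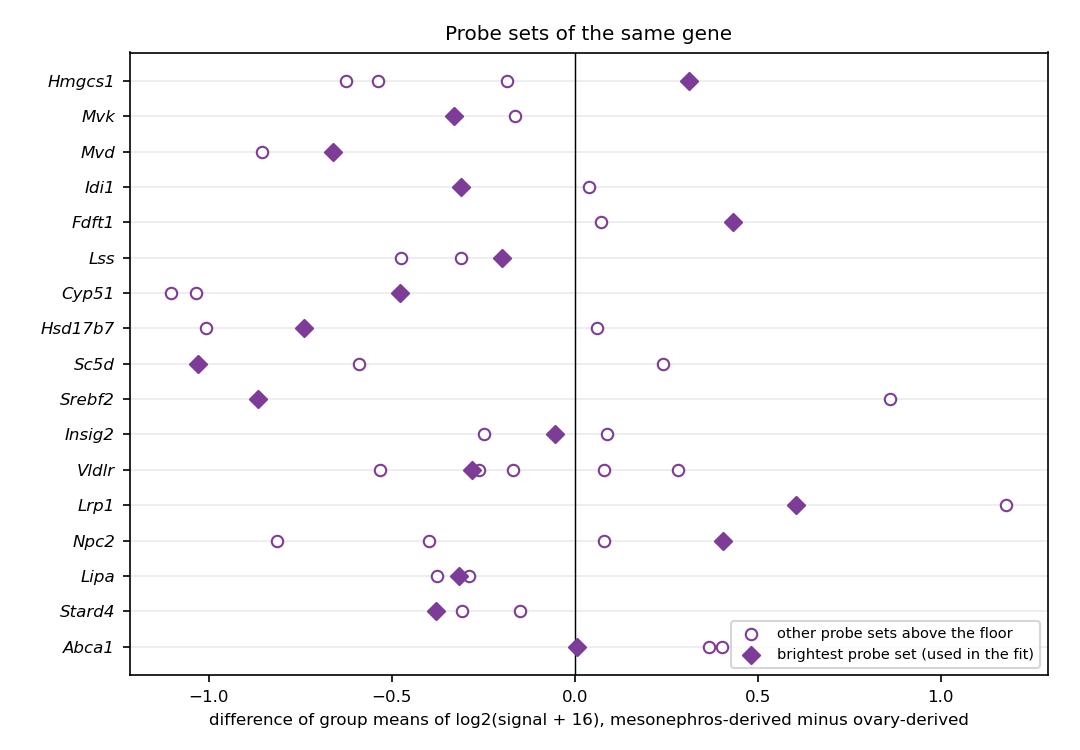
Difference of group means in log2(signal + 16) for every probe set above the floor, for the 17 genes with more than 1, with diamonds for the probe set used, that of highest mean, and open circles for the others. Symbols of Hmgcs1, Srebf2, Npc2, Sc5d and Hsd17b7 fall on both sides of 0, whereas all those of Cyp51, Lss, Mvd, Lipa and Stard4 lie to the left and those of Lrp1 to the right.

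Other genes of sterol metabolism, those of steroid synthesis apart, gave 59 tested out of 76 listed, and 0 passed an adjusted p of 0.05 in limma. At an unadjusted p under 0.05 there were 4 on the higher and 3 on the lower side, 11.9% of the 59 against 13.7% of all genes tested. Among further synthesis enzymes and their cofactors, 5 of 8 had a change above 0 (43.5% of all genes tested did). Cyb5r3, a reductase that supplies electrons to lipid enzymes, had the smallest p of them, at 1.02 ± 0.24 (SE, adjusted p = 0.214 by limma). Acss2, which makes acetyl-CoA from acetate, stood at 1.26 ± 0.45 (SE, adjusted p = 0.306 by limma). Of the regulators, 11 of 12 had a change below 0 (91.7%, against 56.5% of all genes tested), with a median of −0.32. Mbtps2, the protease that makes the second cut in SREBP, read 256, 379 and 263 against 881, 617 and 500.5 without overlap. Its log2 change was −1.10 ± 0.33 (SE, adjusted p = 0.263 by limma), and Erlin1, which helps restrain SREBP activation, stood at −0.89 ± 0.47 (SE, adjusted p = 0.429 by limma).

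Uptake genes outside the set had 5 of 6 below 0 (83.3%, against 56.5% of all genes tested) and none at an unadjusted p under 0.05. Lsr, a lipoprotein receptor, stood at −0.73 ± 0.48 and Dab2, an endocytic adaptor, at −0.15 ± 0.20 (SE). Of 21 trafficking and storage genes, 9 had a change above 0 and 12 below (57.1%, against 56.5% of all genes tested). Tmem97, an SREBP-regulated protein that binds NPC1, read 171, 218 and 327 against 632, 491 and 740.0, all mesonephros-derived arrays being lower. Its log2 change was −1.35 ± 0.35 (SE, adjusted p = 0.232 by limma). Lamp2, a lysosomal membrane protein, lay on the other side, at 9656, 10159 and 7241 against 5949.8, 6022 and 5480.0 and a change of 0.62 ± 0.18 (SE, adjusted p = 0.263 by limma). Efflux and oxysterol genes had 8 of 12 above 0 (43.5% of all genes tested were) and 0 at an unadjusted p under 0.05. Abca7 stood at 1.01 ± 0.45 and Cyp7b1, an oxysterol hydroxylase, at −0.86 ± 0.39 (SE). All 6 tested genes of cholesterol entry and steroid synthesis had a change above 0 (43.5% of all genes tested did). Their median was 0.91, and the lowest was Tspo, at 0.02 ± 0.30 (SE). The 2 with the smallest p were Cyp17a1, at 2.67 ± 0.45 (SE, adjusted p = 0.106 by limma), and Fdx1, at 0.96 ± 0.22 (SE, adjusted p = 0.212 by limma). Their list mean of 0.45, 1.51 and 1.10 log2 units put mesonephros-derived replicate 1 lowest of its group. That array was also lowest of its group for synthesis from squalene and for macrophage and endothelial markers. So it was for the mean over all 11703 genes, at −0.16 against −0.06 and −0.03. For synthesis to squalene, sterol sensing and uptake it was the highest of its group.

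Endothelial markers also lay mostly below 0 in mesonephros-derived cells. Of 9 tested, 8 had a change below 0 (88.9%, against 56.5% of all genes tested). Their list means were −1.87, −0.25 and −1.36 log2 units, with summed signals of 4197 to 7644 against 6639 to 10124 in ovary-derived cells. None was at 0, though Kdr read 9.91 on mesonephros-derived replicate 1, and their part in the differences of the synthesis genes was not tested. Of 10 granulosa markers, 9 had a probe set under their own symbol and 4 were above the floor. Of these, 3 had a change above 0 (43.5% of all genes tested), with summed signals of 5365 to 6441 against 5045 to 6603. Foxl2, the brightest of them, read 3434, 4626 and 3912 against 4371.5, 5330 and 3858, a change of −0.18 ± 0.20 (SE). Of the 6 luteal markers 2 were tested, Sfrp4 at 1.56 ± 0.39 and Cited4 at 1.24 ± 0.68 (SE). The 12 immediate early and heat shock genes, which can rise with stress during tissue digestion, had list means of 0.90, −0.33 and −0.79 against −0.29, −0.13 and 0.42. Of these, 4 had a change above 0 and 8 below (66.7%, against 56.5% of all genes tested). The heat shock genes Hspa1a and Hspa1b stood highest, at 1.59 ± 0.51 and 1.53 ± 0.63 (SE).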

How the data were processed

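RNA of 6 sorted samples, 3 per group, was amplified and hybridised to 1-colour arrays. The deposited values are linear probe set intensities. The submitters' processing notes name MAS5, with no version, settings or genome build in the sources used here. Each deposited array had a trimmed mean of 500 (2% cut at each end), and no further scaling was applied. A fixed RNA volume, not mass, went into amplification, per the labels' protocols.

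Of 45101 probe sets, 64 controls were left out of the tests, and 34945 had 1 gene symbol, 932 several and 9160 none in the platform annotation. Intensities were moved to log2(signal + 16), which understates changes of dim genes. Each gene was represented by its probe set with the highest mean, and those below the 40th percentile were not tested. Groups were compared with limma 3.58.1 (R 4.3.3, eBayes with intensity trend, two-sided, Benjamini-Hochberg over 11703 genes), mesonephros-derived minus ovary-derived. A run on simulated data checked only that known changes were recovered on average, not the rate of calls. No detection calls were used, and no 2 arrays were identical. The number of arrays limits the precision.

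All 36 members are named, by role, with up to 2 genes of smallest p from each other pathway list, and also Msmo1 and Lbr. The members, roles and lists were chosen with earlier results of these data known. Alternatives were pseudocounts of 1 and 64, no floor or the 60th percentile, quantile normalization, averaging each gene's probe sets, leaving out _x_at and _s_at probe sets, no trend, array weights, a replicate block and leaving out each array. Probe sets and tested genes were kept as in the main setting unless the alternative concerns them.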

Additional observations from a re-analysis of the deposited data

How the results depend on the processing

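No cholesterol gene passed an adjusted p of 0.05 in limma under any of the 16 alternatives run, the smallest being 0.0984, for Apoe without mesonephros-derived replicate 3. The number of members at an unadjusted p under 0.05 was 3, and 1 to 8 when an array was left out; that of all genes was 1601, and 658 to 2454. The count of all genes called was 5, and became 3 with a pseudocount of 1, 9 with the mean of all probe sets, 0 without the trend (1504 at an unadjusted p under 0.05), 129 with array weights and 0 to 58 when each array was left out. With the replicate block 4 genes were called, 0 of them members. Deviations of same-numbered arrays from their group means correlated at −5e-04, 0.0711 and −0.010, so no shared deviation was seen. This cannot tell whether same-numbered samples were paired, since the larger spread of the mesonephros-derived arrays could hide a small shared part. Members with a change below 0 numbered 17 to 22 when an array was left out (22 with all), and 18 of 29 with the higher floor. Of the 9 late enzymes 7 had a change below 0 with all arrays, 6 to 8 when an array was left out and 6 with array weights, not always the same ones. With the mean of all probe sets, Hmgcs1 turned to −0.44, Fdps turned to 0.16, Scap turned to −0.31 and Npc2 turned to −0.18. That mean takes in probe sets below the floor. Fdps and Scap each had only 1 other probe set, and it lay below the floor. With array weights, Mvk turned to 0.053, Lss turned to 0.21, Insig1 turned to −0.27 and Npc1 turned to 0.17. After quantile normalization, Insig2 turned to 0.0020, Abca1 turned to −0.062 and Nr1h3 turned to 0.045. Of the 326 values of single genes under settings other than leaving out an array, 315 kept their sign, and 19 of 33 genes kept it whichever array was left out. The others ranged across 0: Mvk (−0.98 to 0.58), Pmvk (−0.24 to 0.15), Fdps (−0.47 to 0.18), Lss (−0.46 to 0.10), Tm7sf2 (−0.26 to 0.25), Srebf1 (−0.40 to 0.20), Srebf2 (−1.45 to 0.062), Insig1 (−0.41 to 0.40), Insig2 (−0.17 to 0.041), Vldlr (−0.67 to 0.074), Mylip (−0.43 to 0.78), Npc1 (−0.27 to 0.15), Abca1 (−0.095 to 0.090) and Nr1h3 (−0.097 to 0.14). The cause was not tested. Signals below the floor, such as Abcg1 on mesonephros-derived replicate 1, limit what a fold can show.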
